A study of Mus musculus with 908 samples.

Results

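The genes described here encode the subunits of the 5 complexes of oxidative phosphorylation. They were taken from both deposited expression tables by symbol: the nuclear families Nduf (followed by a, b, c, s or v and a number), Sdha to Sdhd, Uqcr, Cox4 to Cox8 and Atp5, and the mitochondrially encoded mt-Nd, mt-Co, mt-Cytb and mt-Atp genes. This gave 96 of 46517 gene rows, 83 nuclear and 13 mitochondrial, after 4 rows with pseudogene names ending in -ps were left out. By complex, the nuclear genes numbered 36 for complex I, 4 for complex II, 8 for complex III, 18 for complex IV and 17 for complex V, and the mitochondrial genes 7, 0, 1, 3 and 2. Nuclear and mitochondrial genes were treated apart throughout. The choice used names only, so it took in Atp5s and Atp5sl, which are no core subunits of the ATP synthase, and counted Ndufa4 with complex I by its name although its protein is now regarded as part of complex IV.

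Complexes I, III and IV of the inner mitochondrial membrane pass electrons from NADH to oxygen and pump protons, complex II feeds in electrons from succinate, and complex V uses the proton gradient to make ATP. All but complex II are assembled from subunits of both genomes: the mitochondrial genome encodes core membrane proteins of complexes I, III, IV and V, and the nucleus encodes everything else. Complex II is wholly nuclear and is also an enzyme of the TCA cycle. Nuclear subunit genes are widely expressed, with a few tissue-restricted versions of complex IV subunits.

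The cells came from skin squamous cell carcinomas of mice of mixed sex between postnatal days 60 and 90, sorted singly for modified Smart-seq2 libraries. Every gate left out cells with CD45, CD31, CD117 or CD140a on their surface. Before adoptive cell transfer, the strain was TRE-HrasG12V;SBE-mCherry-PGK-rtTA3, in which mCherry reports TGF-beta signalling. It gave 4 groups: reporter-positive cells (integrin α6+, mCherry+, CD34+, CD44+, on plates named CSC1 and CSC2), a CD44+ reporter-negative group (α6+, mCherry-, CD34-, CD44+), CD44-negative α6+ cells (mCherry-, CD34-) and α6-negative cells (mCherry-, CD34-, CD44-). After transfer, the strain was TRE-OVA;TRE-HrasG12V:PGK-rtTA3P2AmCherry, in which ovalbumin is inducible as an antigen and PGK drives mCherry, and mCherry was the only marker selected for (plates OT2 and OT_B). All groups thus share the inducible Hras transgene, and the cells after transfer differ from the others in strain, gate and treatment together. Of 554 libraries, those in which 2000 or more genes reached 1 TPM (transcript abundance per length and per library) were kept. These were 73 on CSC1 and 32 on CSC2, 87 on OT2 and 90 on OT_B, and, in the other gates, 43 α6-negative, 91 CD44-negative α6+ and 15 CD44+ reporter-negative libraries. No animal is named, so each group is 1 sample, no test was made between groups, and all differences are between these libraries.

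Several features of the libraries bear on the values. Ribosomal rows took a median of 66.1% to 76.4% of all TPM per plate. So levels are also given rescaled to the same total without spike-in and ribosomal rows, and each is named as such. The ribosomal rows here include 2 Yam1 rows, a choice made after the data were seen. In 7 reporter-positive, 1 α6-negative and 2 after-transfer libraries the ribosomal share was under 50%. Nuclear sums in them ran from 1448 to 66465 TPM, so not all were high, against at most 26680 TPM in any other library. Keratinocyte markers led every reporter-positive, CD44-negative α6+ and after-transfer library. They also led 12 of 15 CD44+ reporter-negative and 27 of 43 α6-negative ones, and fibroblast or pericyte markers led the rest. The sum of 7 immune markers had a median of 0 TPM in every group but reached 235.1 TPM in a reporter-positive library. Among them Ptprc averaged at most 0.062 TPM in any group. The endothelial marker Pecam1 averaged 8.04 TPM in reporter-positive cells, and Cdh5 at most 0.097 TPM in any group. Xist was found in 0 reporter-positive, 14 of 15 CD44+ reporter-negative, 43 CD44-negative α6+, 0 α6-negative and 0 after-transfer libraries, so the groups also differ in the animals they came from. Many cells had been sequenced more than once: 72 pairs of libraries joined plate CSC1 with plate OT_C, labelled after therapy, 28 joined CSC2 and 17 joined the CD44+ plate with OT_D, also labelled after therapy. For 72 of 73, 28 of 32 and 15 of 15 kept libraries of those plates a partner thus carried the other label, and which label is right is not settled by the files.

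Sequence matters for the mitochondrial genes, because 7 of the 13 have a near-identical nuclear copy with a row of its own. The 7 copies, all annotated as unprocessed pseudogenes, lie side by side on the minus strand of mm10 chromosome 1, from 24611535 to 24616197. Gm10925 matched mt-Atp6 over 678 bases, Gm28661 matched mt-Co2 over 681, Gm28437 matched mt-Co3 over 783, Gm28439 matched mt-Nd4 over 876 and Gm10222 matched 98.99% of the length of mt-Nd4l, each without a mismatch. Gm28438 differed from mt-Nd3 at 1 aligned base (99.71% identity), T3C, and Gm29216 from the end of mt-Co1 at 1 aligned base (99.79% identity), A1066T, where the mitochondrial base comes first and positions count from the start of the mitochondrial gene. The stretches around these mismatches are shown because within the aligned bases a short read can be told apart only there, with the differing base in capitals. They are mt-Nd3 at chrM:9459-9488 (plus strand) with Gm28438 at chr1:24613090-24613119 (minus strand), and mt-Co1 at chrM:6390-6419 (plus strand) with Gm29216 at chr1:24616159-24616188 (minus strand).
mt-Nd3: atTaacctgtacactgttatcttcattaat
Gm28438: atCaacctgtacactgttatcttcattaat
mt-Co1: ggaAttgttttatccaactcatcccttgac
Gm29216: ggaTttgttttatccaactcatcccttgac
A further 43 bases, chrM:7927-7969 on the plus strand, belong to mt-Atp8 and mt-Atp6 at once, whose reading frames overlap on the mitochondrial transcript, so reads there cannot be given to 1 gene.
mt-Atp8 and mt-Atp6 overlap: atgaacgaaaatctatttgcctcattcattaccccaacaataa

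For mt-Co3, mt-Atp6, mt-Nd3 and mt-Nd4l most of the deposited mean level stood on the copy in every group. For mt-Co2 it did so in every group but the CD44-negative α6+ one, where the copy averaged 378.8 and its own row 398.4 TPM. In CD44-negative α6+ cells the row of mt-Nd4l, a small membrane subunit of complex I, was detected (1 TPM or more) in 3 of 91 libraries, while that of Gm10222 was detected in 90. For mt-Co3, a core subunit of complex IV, the median was 0.53 TPM on its own row and 1400.3 TPM on that of Gm28437 in the same cells. When each mitochondrial row was summed with its copy, single-row folds past 2-fold all fell below it, while some smaller ones grew or changed sign. Between reporter-positive and CD44+ reporter-negative cells, mt-Nd4l stood at a log2 fold (of mean TPM + 1, as for all folds here) of -4.09 on its own row and at -0.14 with its copy, and mt-Co2, the subunit of complex IV that takes electrons from cytochrome c, at 1.70 and 0.69. Between CD44-negative α6+ and α6-negative cells, mt-Nd3 stood at 3.10 alone and 0.74 with its copy. In the other direction, mt-Co3 in cells after transfer over reporter-positive cells stood at -0.24 alone and -0.83 with its copy. In reporter-positive over CD44+ reporter-negative cells it stood at -0.30 alone and 0.70 with its copy. Mitochondrial values below are therefore sums with the copies unless stated. For mt-Co1 and mt-Nd4, whose copies are partial, the sum of 2 TPM values of different length is only a rough level.

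**Figure D1:**
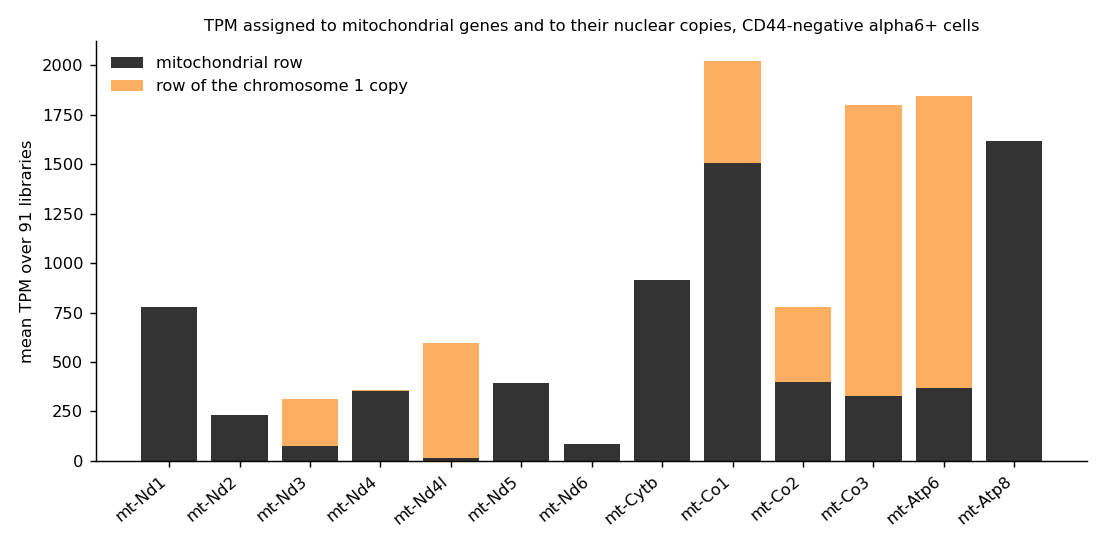
Mean TPM over the 91 CD44-negative α6+ libraries (y axis) for each mitochondrial gene (x axis), with the part on the mitochondrial row in black and the part on the row of its chromosome 1 copy in orange. For mt-Co3, mt-Atp6, mt-Nd3 and mt-Nd4l most of the bar is on the copy, while 6 genes have no copy row.

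For the nuclear genes, 66 of the 83 matched a RefSeq promoter sequence (GRCm38.p6, 250 bases before to 50 after the start). The motifs searched on both strands were those of NRF1 (GCATGCGC), a factor known for its sites in respiratory chain genes, of ETS factors such as GABP (CCGGAAG) and of YY1 (AAGATGGC). NRF1 letters were in 10 of the 66 promoters (15.2%, against 2.81% of all 27025), ETS letters in 15 (22.7% against 9.12%) and YY1 letters in 8 (12.1% against 2.88%), and 28 held at least 1 of these motifs (42.4% against 13.8%). A match describes letters, not a bound site. The 250 bases upstream are shown for Cox6a1, which held the most matches, and for the complex II genes Sdhb and Sdhd, whose levels are described below, with the matched letters in capitals. In Cox6a1 the first capital run holds 2 NRF1 matches on opposite strands that share 6 bases, and the second is an ETS match on the reverse strand. The windows are chr5:115348959-115349208 (minus strand), chr4:140961021-140961270 (plus strand) and chr9:50603850-50604099 (minus strand).
Cox6a1: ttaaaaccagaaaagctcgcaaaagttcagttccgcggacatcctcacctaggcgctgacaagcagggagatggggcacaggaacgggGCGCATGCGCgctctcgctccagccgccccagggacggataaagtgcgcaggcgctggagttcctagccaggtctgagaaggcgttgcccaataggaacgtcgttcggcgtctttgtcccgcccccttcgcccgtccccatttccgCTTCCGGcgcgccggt
Sdhb: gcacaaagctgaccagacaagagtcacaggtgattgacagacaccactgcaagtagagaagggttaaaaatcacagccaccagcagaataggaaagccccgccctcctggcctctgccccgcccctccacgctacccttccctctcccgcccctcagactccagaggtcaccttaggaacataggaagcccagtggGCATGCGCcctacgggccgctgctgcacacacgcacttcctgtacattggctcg
Sdhd: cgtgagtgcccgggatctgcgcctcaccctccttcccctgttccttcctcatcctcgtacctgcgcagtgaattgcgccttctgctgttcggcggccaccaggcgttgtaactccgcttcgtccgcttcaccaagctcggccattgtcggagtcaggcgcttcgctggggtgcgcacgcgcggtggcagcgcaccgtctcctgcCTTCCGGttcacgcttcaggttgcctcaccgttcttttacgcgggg

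Nuclear subunit genes were expressed in nearly every cell. The median library had 74 of the 83 detected in reporter-positive and in CD44-negative α6+ cells, 73 in CD44+ reporter-negative cells and after transfer, and 63 in α6-negative cells. Their summed level per library ran from 1448 through a median of 5983 to 66465 TPM in reporter-positive cells, from 3970 through 5851 to 12807 in CD44+ reporter-negative cells, and from 3815 through 7025 to 26680 in CD44-negative α6+ cells. In α6-negative cells it ran from 775 through 3472 to 43108 TPM and after transfer from 1210 through 5890 to 37781. All 5 groups overlapped, and the α6-negative median was the lowest. On the rescaled scale the medians were 21050, 23457, 26053, 15547 and 23143 in the same order, so the 4 groups other than the α6-negative one lay within a narrow band beside their spread between cells.

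**Figure D2:**
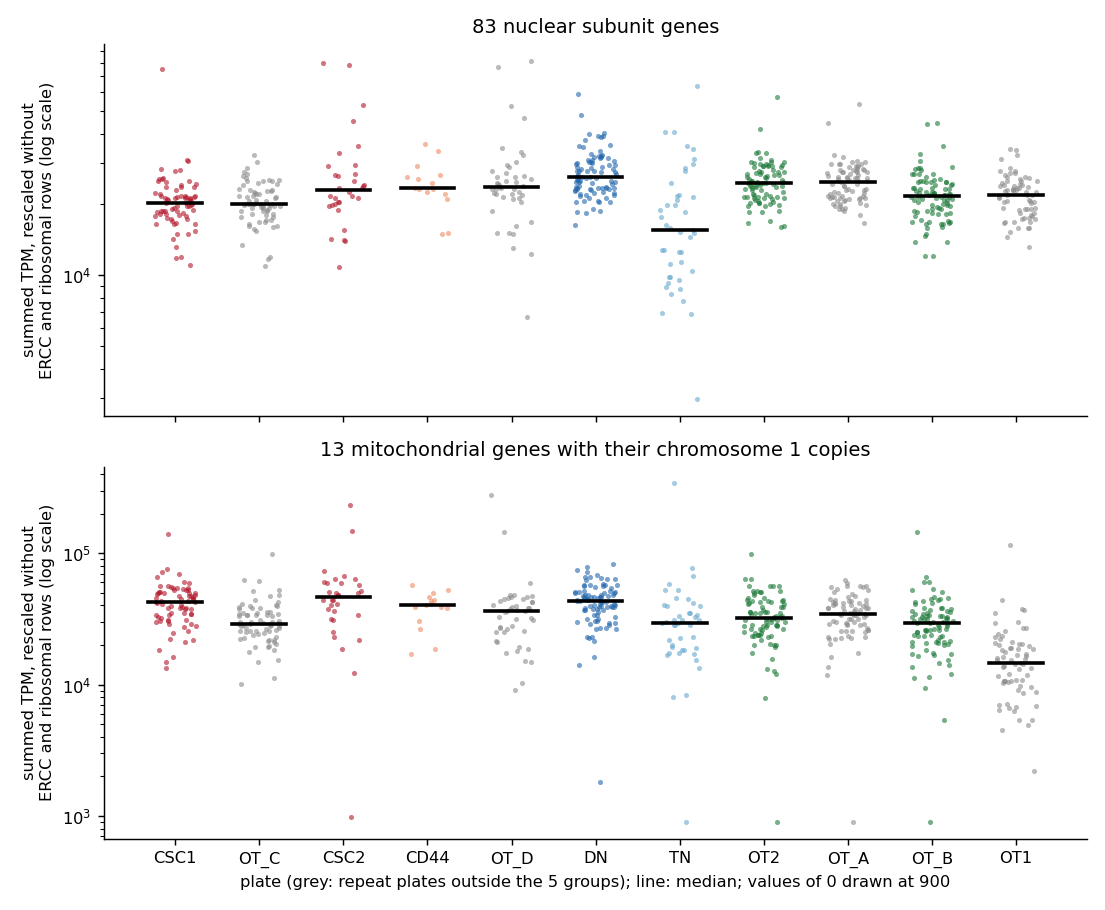
Each point is 1 library: its summed nuclear subunit genes (top) or mitochondrial genes with copies (bottom), in TPM rescaled without spike-in and ribosomal rows, on a log axis, by plate. Colours mark the 5 groups, grey the repeat plates, and black lines the plate medians. Nuclear sums sit at like heights on all plates but TN (the α6-negative gate), while mitochondrial sums differ even between plates that hold the same cells, such as OT1 and OT_B.

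The makeup of the nuclear sum was largely alike in all groups, except for complex II. Complex V held a median of 29.1% to 30.6% of it, complex I 26.7% to 30.2%, complex IV 23.6% to 27.5% and complex III 13.02% to 14.29%. Complex II held 1.10% after transfer and 1.58% to 1.79% in the other groups. Length-normalised levels differed more than 10-fold between genes of 1 pathway. The highest, as the mean of the 5 group means, was that of Atp5b, the catalytic β subunit of the ATP synthase, at 468.2 TPM. The 3 highest of each complex include the complex IV genes Cox4i1 at 319.5, Cox5b at 244.4 and Cox6b1 at 231.1 TPM, Uqcrh (complex III hinge protein) at 233.4 and Uqcr11 at 186.4, and Atp5g3, 1 of 3 genes for the membrane c subunit, at 182.8. In complex I, Ndufa4 led at 156.7 TPM, ahead of Ndufb9 at 121.8 and Ndufc1 at 103.4. Complex II genes were lower: Sdhb, its iron-sulphur subunit, at 32.9, the flavoprotein Sdha at 26.7 and the membrane anchors Sdhc and Sdhd at 23.5 and 16.6 TPM.

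Nearly identical sequences limit single rows here too. For 16 nuclear genes another row was at least 98% identical over at least 200 bases. Ndufb4, an accessory subunit of complex I, averaged 9.30 TPM over all kept libraries, while Gm3244, identical over all aligned bases, averaged 37.1, which is 79.9% of both. BC002163 held 23.01% of its sum with Ndufs5 and Gm10039 17.1% of its sum with Atp5g1. The other copy rows held under 10%.

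Tissue-restricted versions of complex IV subunits were almost absent, with 1 exception that followed cell type. Cox6a2, Cox7b2 and Cox8c, muscle or testis forms, were detected in 0 kept libraries each, which allows a share of up to 0.696% of such libraries. Cox8b was detected in 1, Cox7a1, the muscle form of subunit 7a, in 5 and Cox6b2, the testis form of 6b, in 23 libraries. The broadly expressed forms Cox4i1, Cox6a1, Cox6b1, Cox7a2, Cox7b and Cox8a were detected in 96.8% (Cox7b) to 99.3% (Cox4i1) of libraries. Cox4i2, the version of subunit 4 known from lung and for its response to low oxygen, was at 180.5 and 325.2 TPM in 2 CD44+ reporter-negative libraries and at 94.3 and 78.6 TPM in 2 α6-negative ones. These were all 4 libraries led by pericyte or muscle markers: the pericyte gene Rgs5 ranged from 1098 to 1789 TPM and the keratinocyte gene Krt14 was at most 0.69 TPM in them. Cox4i1 was at 331.2, 173.8, 197.9 and 133.99 TPM in the same cells, so both forms were present together. Among all other kept libraries Cox4i2 was detected in 2, at 2.62 and 12.98 TPM. Repeat libraries of the 2 CD44+ cells gave 186.7 and 322.9 TPM. These 4 cells alone gave the group means of Cox4i2, 33.7 TPM in CD44+ reporter-negative and 4.02 TPM in α6-negative cells, against at most 0.073 TPM in the other groups.

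For the comparisons, 12133 genes with a mean of group means of at least 1 TPM were used. They include 78 of the 83 nuclear genes (not Cox6a2, Cox7a1, Cox7b2, Cox8b and Cox8c) and all 13 mitochondrial ones. A gene was counted as changed by size alone, at 2-fold or more. As a yardstick, plate CSC2 over CSC1, both reporter-positive, gave a nuclear median log2 fold of 0.73 with 20 of 78 genes at least 2-fold higher, or 0.37 with 3 genes without the libraries under 50% ribosomal TPM. Plate OT2 over OT_B gave 0.49 with 2 genes. Medians below lie mostly inside that range.

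Reporter-positive and CD44-negative α6+ cells differed little in subunit genes. The nuclear median log2 fold was -0.04, beside 0.05 for all genes, and 0 of 78 were at least 2-fold higher or lower, where 8.06% and 4.09% of all genes were. On the rescaled scale the median was -0.25, and it was -0.31 without the libraries under 50% ribosomal TPM. Without plate CSC1 it was 0.39, with 12 of 78 genes at least 2-fold higher. By complex the medians were -0.03 (I), -0.33 (II), -0.04 (III), 0.02 (IV) and -0.08 (V). The highest fold was that of Uqcrq, a small complex III subunit, at 0.78, but 0.23 rescaled. The lowest after Sdhd, described next, were those of the complex I genes Ndufa10 at -0.43, Ndufa12 at -0.39 and Ndufv1, which holds the NADH site, at -0.39. The mitochondrial genes had a median of 0.10, with 11 of 13 above 0, from -0.06 for mt-Nd4l to 0.47 for mt-Nd3. Rescaled, their median was -0.01 and mt-Nd3 stood at 0.04.

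Among nuclear genes at 10 TPM or more, Sdhd had the lowest fold in reporter-positive cells against both CD44-negative α6+ and CD44+ reporter-negative cells. This gene encodes the small membrane anchor of complex II that helps bind ubiquinone. Its values ran from 0 through a median of 9.72 to 64.6 TPM in reporter-positive cells, from 0 through 24.6 to 59.9 in CD44+ reporter-negative cells and from 0 through 17.8 to 119.1 in CD44-negative α6+ cells. It averaged 12.2, 24.4 and 25.02 TPM, which gave log2 folds of -0.97 against the CD44-negative and -0.94 against the CD44+ reporter-negative cells, and -1.11 and -1.23 rescaled, past 2-fold. Both reporter-positive plates were low, with medians of 10.4 on CSC1 and 7.96 on CSC2, and the repeat libraries of CSC1 on OT_C had a median of 10.5. Cells after transfer were also low, with medians of 9.04 TPM on OT2 and 5.67 on OT_B, and α6-negative cells lower still at 3.30. The distributions overlapped in all groups. Within the CD44-negative gate, libraries with Y-linked transcripts and those with Xist averaged 26.1 and 24.7 TPM. Repeat libraries of CSC2 and of the CD44+ reporter-negative plate lie together on OT_D. There Sdhd averaged 10.6 TPM over 28 reporter-positive pairs and 24.4 TPM over 17 CD44+ reporter-negative pairs. These 17 pairs join only 15 kept CD44+ reporter-negative libraries, so some libraries count more than once. Being libraries of the same cells, the repeats carry over any difference from the first plate or sort, whose part was not tested. CD44-negative cells were on a plate of their own, where plate and gate cannot be told apart. The other complex II genes also had folds below 0 against CD44-negative cells, at -0.35 for Sdha, -0.31 for Sdhb and -0.21 for Sdhc.

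Against CD44+ reporter-negative cells, reporter-positive cells had a nuclear median of 0.21, beside 0.00 for all genes. At least 2-fold higher were 3 genes, Ndufs5 at 1.21, Uqcrq at 1.19 and Ndufb7 at 1.05, against 11.3% of all genes, and at least 2-fold lower were 2, Cox4i2 and Cox6b2, against 13.6%. The 3 rested on plate CSC2 and on the libraries of low ribosomal share: without either, and also after rescaling, 0 genes were 2-fold higher, while without plate CSC1 19 were. Ndufs5, an accessory subunit in the intermembrane space, ran from 0 through 47.8 to 798 TPM in reporter-positive and from 0 through 18.4 to 81.03 TPM in CD44+ reporter-negative cells. Summed with its near-identical row BC002163, it averaged 70.5 and 63.8 TPM, a log2 fold of 0.14. The rescaled nuclear median was -0.14, beside -0.16 for all genes, so the sign depends on the scale and the rescaled value lies near that of all genes. The mitochondrial median was 0.36 (0.17 rescaled), with 12 of 13 genes above 0. Only 15 libraries, all but 1 with Xist, stand for the CD44+ reporter-negative gate.

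CD44+ reporter-negative over CD44-negative α6+ cells gave a nuclear median of -0.23, beside 0.03 for all genes, and 12 of 78 genes above 0. At least 2-fold higher were again Cox4i2 and Cox6b2, against 13.5% of all genes, and lower was 1 gene, Ndufs1, against 5.37%. Cox6b2 was detected in 2 of the 15 CD44+ reporter-negative libraries, at 15.1 and 69.5 TPM. Without the second, in well G7, its mean went from 5.64 to 1.08 TPM and its log2 fold from 1.59 to -0.08 (against reporter-positive cells from -1.47 to 0.20), and Ndufs1 also no longer reached 2-fold. Ndufs1, the large iron-sulphur subunit of complex I, ran from 0 through 4.71 to 59.04 TPM in CD44+ reporter-negative and from 0 through 20.7 to 88.2 TPM in CD44-negative cells, with a log2 fold of -1.07 on both scales. The groups overlapped, and 10 of 15 and 83 of 91 libraries had it detected. The mitochondrial median was -0.23, with 2 of 13 genes above 0.

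CD44-negative α6+ cells stood above α6-negative cells. The nuclear median was 0.37, beside -0.21 for all genes, and 70 of 78 genes were above 0. At least 2-fold higher were 7 of 78 genes, a share close to the 8.65% of all genes. These were Sdhc at 1.88, Atp5g1 at 1.43, Ndufa12 at 1.34, Sdhd at 1.33, Ndufb10 at 1.21, Uqcrc1, a core subunit of complex III, at 1.19 and Ndufs6 at 1.17. At least 2-fold lower was 1, Cox4i2, against 21.2%. Rescaled, the median was 0.48 with 11 genes higher, and without the α6-negative library of low ribosomal share it was 0.61 with 15. By the difference of mean log2(TPM + 1), which weights cells at 0 more, it was 1.59 with 64. Sdhc ran from 0 through 29.2 to 103.2 TPM in CD44-negative and from 0 through 2.82 to 38.6 TPM in α6-negative cells, and was detected in 87 of 91 and 24 of 43 libraries. Atp5g1, another c subunit gene, ran from 20.6 through 174.5 to 1021 TPM and from 0 through 39.5 to 941 TPM. The mitochondrial median was 0.34, from -0.17 for mt-Co1 to 0.97 for mt-Nd1. The α6-negative libraries also had fewer genes, with a median of 5521 against 6810, and more spike-in TPM, 2.78% against 0.435%; the part of this in the result was not tested.

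**Figure D3:**
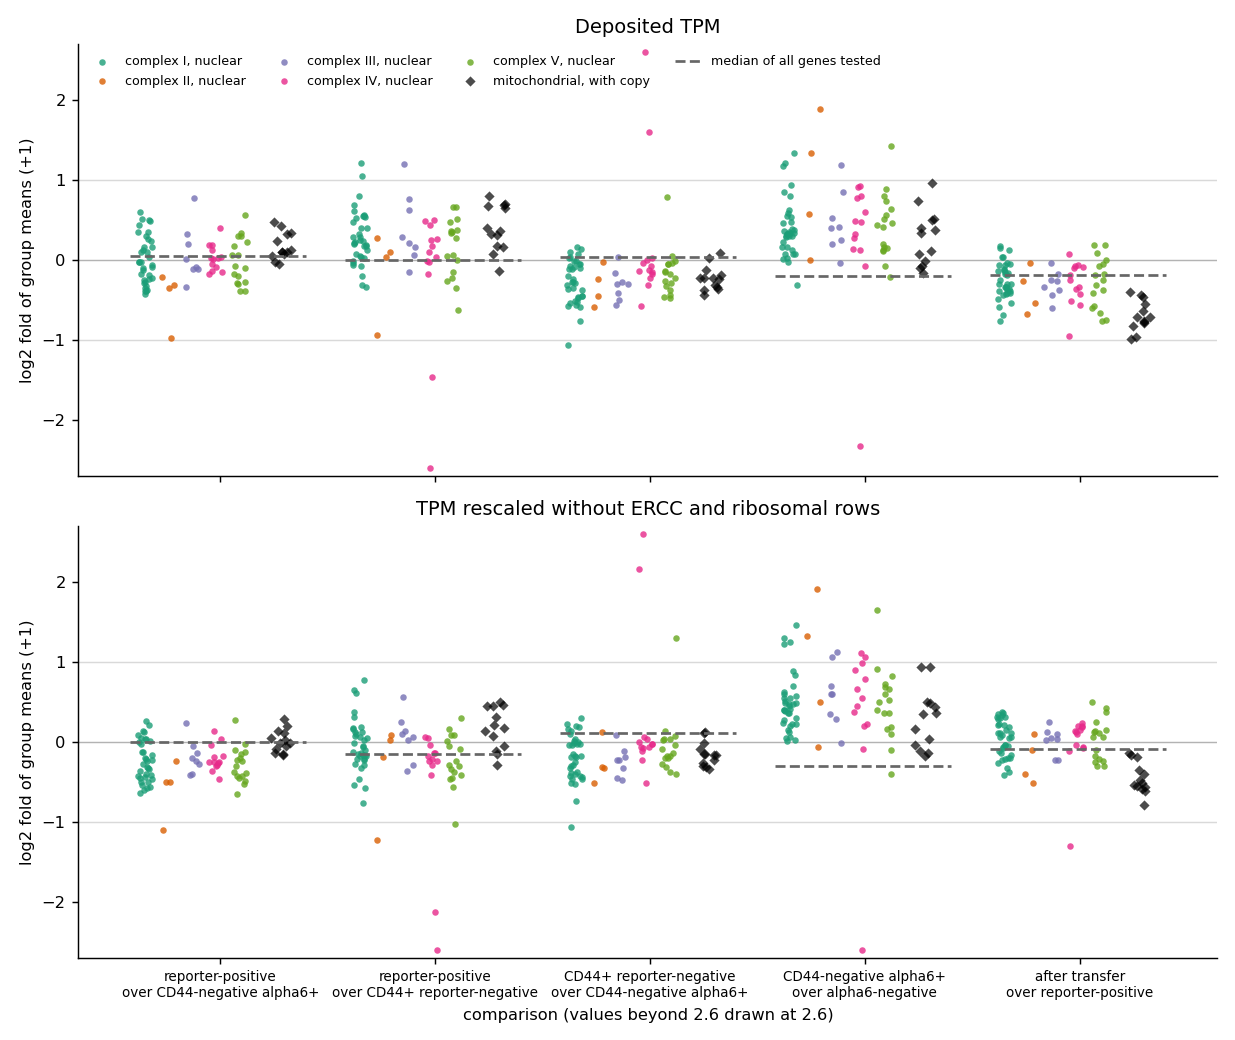
Log2 fold of group means (y axis) of every nuclear subunit gene that passed the filter, coloured by complex, and of the 13 mitochondrial genes with their copies (black diamonds) in the 5 comparisons (x axis), on deposited TPM (top) and rescaled TPM (bottom). Dashed lines are the median of all genes tested. Most points lie between -1 and 1; the diamonds after transfer all lie below 0, and the nuclear points after transfer move from mostly below 0 to about 0 with rescaling.

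The α6-negative gate held both keratinocyte-led and stroma-led cells on 1 plate, and the subunit genes differed between them in level, with overlapping ranges. Stroma-led cells here are the 14 led by fibroblast and 2 led by pericyte or muscle markers. Stroma-led over keratinocyte-led cells gave a nuclear median of -1.27, beside -0.07 for all genes, with 51 of 78 genes at least 2-fold lower and 1 higher (Cox4i2), where 25.2% of all genes were lower and 22.1% higher. Complex III stood lowest at -1.97, followed by IV at -1.69, V at -1.34 and I at -1.13. Complex II did not follow: its 4 genes were all above 0, with a median of 0.10. Without the keratinocyte-led library of low ribosomal share the nuclear median was -0.97, with 39 of 78 at least 2-fold lower, complex II was at 0.07, and complex III, the lowest, at -1.55. On the rescaled scale with all libraries the nuclear median was -0.85.

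Per cell, the rescaled sums of complexes I, III, IV and V had lower medians in fibroblast-led than in keratinocyte-led cells, but not in the order of the folds of means: 3376 against 6014 for I, 1553 against 2356 for III and 3873 against 6345 for V. Rescaled complex IV sums ran from 216.7 through a median of 4784 to 18446 in the 27 keratinocyte-led cells, and from 1495 through 1953 to 5859 in the 14 fibroblast-led cells. Rescaled complex II sums ran from 0 through 215.2 to 978 and from 65.1 through 328.2 to 1163. The ranges overlapped in both, with the fibroblast-led median lower for complex IV and higher for complex II. Among single genes, rescaled Cox4i1 had medians of 1173 and 439.6 in keratinocyte-led and stroma-led cells, Cox6b1 417.5 and 174.1, Atp5b 1466 and 727, and, in complex II, Sdha 63.6 and 117.7, Sdhb 56.1 and 102.3, and Sdhd 5.96 and 33.5. Sdhc went the other way, with medians of 10.06 and 3.29. The stroma-led cells had more genes detected, with a median of 6688.5 against 5372, so lower sums and more genes went together. Glycolysis genes were also lower in stroma-led cells, with a median of -0.86, and 5 of 14 were at least 2-fold lower where 25.2% of all genes were.

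With the keratinocyte-led cells alone, CD44-negative α6+ over α6-negative cells gave a nuclear median of 0.03, beside -0.10 for all genes, with 6 of 78 past 2-fold upward and 0 downward, where 11.7% and 17% of all genes were. Complex II kept its difference at 1.13, with Sdhc at 1.92 (33.2 against 8.07 TPM), Sdhd at 1.38 (25.02 against 9.01 TPM), Sdhb at 0.88 and Sdha at 0.01. The other 4 complexes had medians from -0.02 to 0.06.

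**Figure D4:**
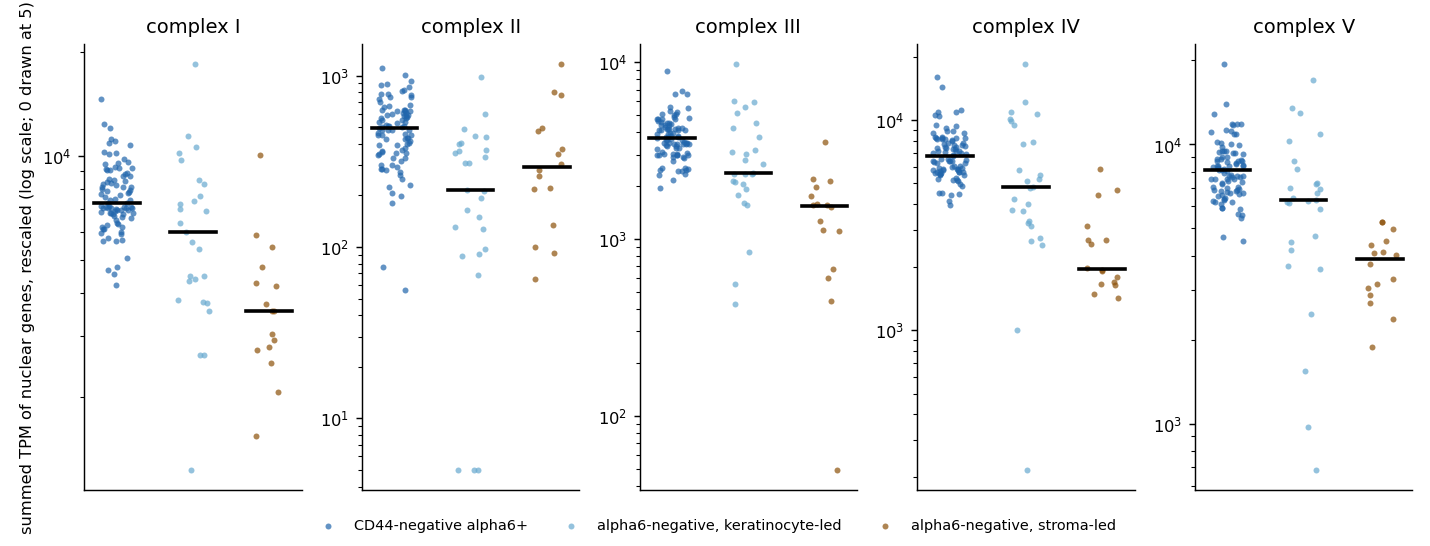
Summed TPM of the nuclear genes of each complex per library, rescaled and on a log axis, for CD44-negative α6+ cells (dark blue), keratinocyte-led α6-negative cells (light blue) and stroma-led α6-negative cells (brown); black lines are medians. Stroma-led cells have the lowest medians for complexes I, III, IV and V, and not for complex II, where the keratinocyte-led α6-negative cells do.

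Inside the CD44-negative α6+ gate, which held libraries with Xist and others with Y-linked transcripts on 1 plate, the nuclear genes differed slightly and in 1 direction. Libraries with Y-linked transcripts over libraries with Xist had a median of 0.31, with 70 of 78 genes above 0 and 0 at least 2-fold in either direction, where 3.19% of all genes were higher and 4.18% lower. The sums had medians of 7859 and 6193 TPM (29463 and 24523 rescaled), over 45 and 43 libraries that both count the 1 library with both kinds of transcript, and their ranges overlapped. In size this median was above that of 3 of the 4 comparisons between gates.

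After transfer, all 13 mitochondrial genes were lower than in reporter-positive cells, and nuclear genes were not consistently so. Mitochondrial sums had a lowest, median and highest value of 257.2, 12243 and 69130 TPM in reporter-positive cells, and of 0, 7761 and 24797 TPM after transfer, with rescaled medians of 43553 and 30671. The median log2 fold over the 13 genes was -0.72 (-0.52 rescaled), from -0.99 for mt-Nd3 and -0.97 for mt-Nd1 to -0.40 for mt-Nd4, and none reached 2-fold. Complex IV cores stood at -0.72 (mt-Co1), -0.78 (mt-Co2) and -0.83 (mt-Co3), the complex III core mt-Cytb at -0.79 and the complex V genes mt-Atp6 and mt-Atp8 at -0.55 and -0.72. The nuclear median was -0.28, beside -0.19 for all genes, with 0 of 78 genes 2-fold higher or lower, where 2.33% and 7.13% of all genes were. Rescaled, it was 0.06, but -0.17 where the 2 Yam1 rows, counted here with the ribosomal ones, were left in, and on deposited TPM without the libraries of low ribosomal share it was -0.01. The count rested on plates: 18 nuclear genes were 2-fold lower without plate CSC1 and 7 without OT2. The lowest nuclear folds among genes at 10 TPM or more were those of Ndufa3 at -0.77, Atp5g3 at -0.76 and Atp5b at -0.75, which became -0.38, -0.26 and -0.24 rescaled, and the highest was that of Atp5a1, the α subunit of the ATP synthase, at 0.19.

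Libraries made again from the same cells set the scale for these values. Nuclear sums repeated closely: over the 5 plate pairs the median log2 ratio of rescaled sums lay between -0.01 and 0.02, with rank correlations of 0.88 to 0.96 across pairs. Mitochondrial sums did not. On the same scale OT_C over CSC1 had a median ratio of -0.51, below 0 in 63 of 72 pairs, OT_D over CSC2 -0.30, and OT_D over the CD44+ plate -0.28. OT_B over OT1 stood at 0.91, below 0 in 2 of 61 pairs, and OT_A over OT2 at 0.03. So for CSC1 with OT_C, and for OT1 with OT_B, libraries of the same cells differed in median by about as much as, or more than, cells after transfer and reporter-positive cells (-0.52). The other plate pairs differed by less, and OT1 lies outside the 5 groups. With the repeat libraries on OT_C and OT_D in place of CSC1 and CSC2, the median fold of the mitochondrial rows alone after transfer went from -0.61 to -0.39. That fold is on deposited TPM and without the copies. Rescaled sums with copies had medians of 42482 on CSC1 and 29162 on OT_C over the pairs of these plates. Over the pairs of CSC2 and OT_D they were 48835 and 36242, beside 30671 for all cells after transfer. Plate and group cannot be told apart for these genes. Nuclear and mitochondrial sums did not track each other between cells, with rank correlations of 0.06 to 0.24 within the 5 groups, over all kept libraries of each, which share the rescaled total.

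**Figure D5:**
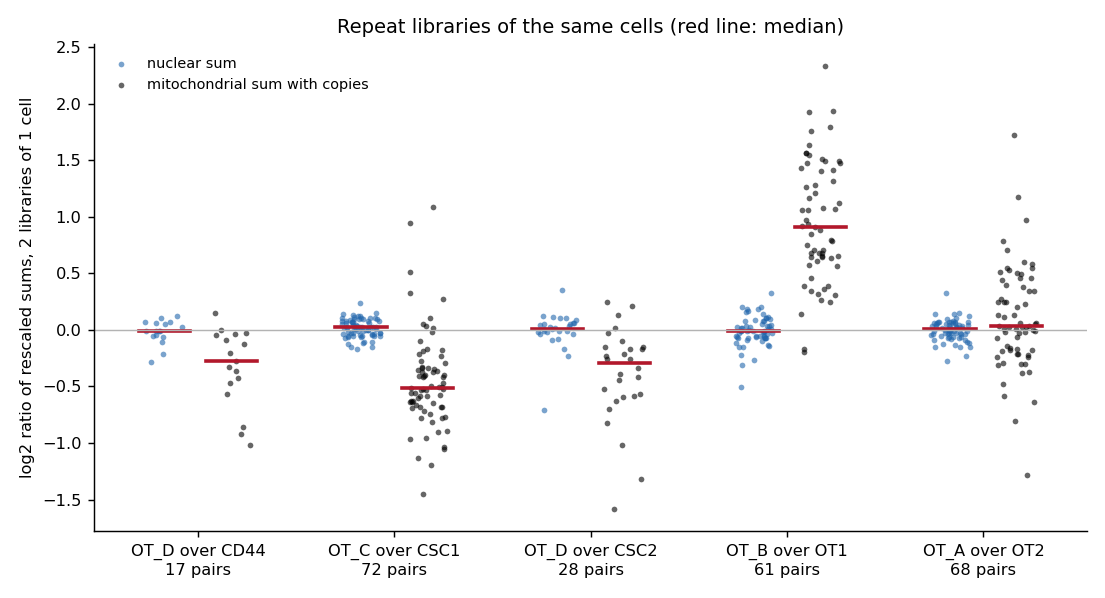
Log2 ratio of rescaled sums between 2 libraries of the same cell (y axis) for each pair of plates (x axis), for nuclear sums (blue) and mitochondrial sums with copies (black); each point is 1 pair and red lines are medians. Nuclear ratios cluster at 0, while mitochondrial ratios spread over more than 1 log2 unit and shift between plates.

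In 3 kept libraries all mitochondrial rows and their copies were listed at 0, 1 α6-negative and 2 after transfer, while their nuclear sums were 6059, 7476 and 3006 TPM. For 1 of the 2 after transfer, the library in well D9 of OT2, its repeat on OT_A was also at 0 with a nuclear sum of 7686 TPM.

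Genes around the pathway moved more than the subunits in some comparisons. Glycolysis genes had a median of 0.62 in reporter-positive over CD44+ reporter-negative cells, with 5 of 14 at least 2-fold higher (all genes 11.3%). In CD44-negative α6+ over α6-negative cells the median was 1.27, with 8 of 14 past 2-fold (all genes 8.65%), and against the keratinocyte-led ones 0.90, with 5 of 14 (all genes 11.7%). All 6 hypoxia-linked regulators of the chain had folds above 0 in CD44-negative α6+ over α6-negative cells, 4 of them past 2-fold (all genes 8.65%), with a median of 1.29. After transfer over reporter-positive cells 4 of the 6 were above 0 and 2 past 2-fold (all genes 2.33%): Ndufa4l2, a hypoxia-induced relative of Ndufa4, at 35.6 against 17.1 TPM (1.01) and Higd1a, a complex IV associated protein, at 46.8 against 21.8 TPM (1.07). Of the carriers, Ucp2, an inner-membrane transporter, averaged 253.7 TPM in reporter-positive, 802 in CD44+ reporter-negative and 705 in CD44-negative α6+ cells, a log2 fold of -1.66 and -1.47. Cox17, the copper chaperone of complex IV assembly, stood at 44.8 against 16.3 TPM in reporter-positive over CD44-negative α6+ cells (1.40). On deposited TPM it was the only 1 of 30 assembly genes of complexes II to IV past 2-fold there. Of all genes, 8.06% were past 2-fold upward and 4.09% downward. Rescaled, 2 of these assembly genes were past 2-fold. In CD44-negative α6+ over α6-negative cells, 2 of 14 complex I assembly genes were past 2-fold upward and 0 downward, and of 12 genes of mitochondrial biogenesis and transcription 1 was past 2-fold in each direction, where 8.65% of all genes were past it upward and 21.2% downward. Of 16 genes of the TCA cycle and pyruvate dehydrogenase, 0 were past 2-fold in any of the 5 comparisons. Across these, 2.33% to 13.5% of all genes were past it upward and 4.09% to 21.2% downward.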

How the data were processed

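Per the submitters' processing notes, Bowtie2 2.2.9, RSEM 1.2.30 and mm10 were used; the deposited tables hold TPM per gene and library, 362 libraries labelled before and 546 after therapy (908 in all), with 92 ERCC rows. TPM keeps no read depth, and the number of genes reaching 1 TPM was used in its place. The sources used here do not say how multi-mapping reads were assigned. Of 46517 identifiers, 46005 matched GENCODE M21, including all 96 members. Members, gene lists and groups were chosen with earlier results of these data known. Folds are log2 of mean TPM + 1 (1 TPM pseudocount). The genes named were all mitochondrial ones and, of the nuclear ones, the 5 with the highest and lowest fold per comparison at 10 TPM or more, the 3 highest per complex and those with paralogs; Ndufb4, Cox17, Ucp2 and others outside that rule were chosen after their values were seen. Rescaled values leave out ERCC rows and 9 ribosomal rows, including 2 Yam1 rows. A library was called by the marker list of highest mean log2(TPM + 1). Repeat pairs were mutual best matches by Pearson r over non-members (0.05 ahead of the next), or any with r of at least 0.88. Copies were matched with blastn 2.17.0. Shares allowed by 0 are 3 libraries of the total and cover counting only. Analyses used Python 3.11.15, pandas 2.3.3 and SciPy 1.17.1, and the fold calculation was tested on simulated data.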

Additional observations from a re-analysis of the deposited data

How the results depend on the processing

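Every library is 1 cell and no animal is named, so spread between animals is unknown, and animal and gate, and for most groups plate, cannot be told apart; TPM gives no counting error per gene. No paired analysis was possible because the well names pair no cells across groups and no group has replicate samples. Of 20 medians and counts, the medians were held against the SD between plates CSC1 and CSC2, 0.52 for nuclear and 0.57 for mitochondrial genes. They moved by more under 1 alternative, the difference of mean log2(TPM + 1), for CD44-negative α6+ over α6-negative cells. These medians were 1.59 against 0.37 for nuclear genes and 0.77 against 0.08 for mitochondrial rows alone. The nuclear limit exceeds in size the nuclear medians of all 5 comparisons, so a median inside it could still change sign. Over the alternatives, the nuclear median ran from -0.36 to 0.39 for reporter-positive over CD44-negative α6+ cells. It ran from -0.14 to 0.64 for reporter-positive over CD44+ reporter-negative cells, and from -0.73 to 0.06 after transfer. Counts of nuclear genes past 2-fold moved by over 1.5 times as follows.

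In CD44-negative α6+ over α6-negative cells, the 7 higher genes were 15 after rescaling without the listed ribosomal rows or also without mt- rows, 16 after centring, 64 by mean log2(TPM + 1), 15 among libraries of 6000 to 8000 genes, 11 with only cells with Y-linked transcripts, 11 after rescaling also without Yam1 and 15 without libraries under 50% ribosomal TPM; the 1 lower gene was 0 with a 10 TPM pseudocount or filter, by mean log2 and in keratinocyte-led cells. In reporter-positive over CD44+ reporter-negative cells, the 3 higher genes were 0 under all 3 rescalings, among 6000 to 8000 genes, without plate CSC2 and without low ribosomal libraries, and 19 without plate CSC1; the 2 lower were 1 with a 10 TPM pseudocount, 0 with a 10 TPM filter, 4 rescaled without Yam1 and 1 without the CD44+ reporter-negative library of highest Cox6b2. In CD44+ reporter-negative over CD44-negative α6+ cells, the 2 higher were 0 with a 10 TPM filter and 1 with a 10 TPM pseudocount, by mean log2, among 6000 to 8000 genes, in keratinocyte-led cells, with the repeat libraries and without the library of highest Cox6b2; the 1 lower was 0 with a 10 TPM pseudocount and without that library, and 3 by mean log2. In reporter-positive over CD44-negative α6+ cells, 0 higher became 12 without plate CSC1 and 2 against cells with Xist, and 0 lower became 2 by mean log2 and 1 with a 0.1 TPM pseudocount, under the 3 rescalings, after centring, among 6000 to 8000 genes, without CSC1 and against cells with Y-linked transcripts. After transfer, 0 higher became 1 with all 6 plates, and 0 lower became 18 without CSC1, 7 without OT2 and 1 with a 0.1 TPM pseudocount, under the 3 rescalings, with at least 4000 genes and without low ribosomal libraries. The Yam1 rescaling, the repeat libraries, the copy sums and leaving out the low ribosomal, mitochondria-free or Cox6b2-high libraries were chosen after seeing the data. The cause of these moves was not tested.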
